A study of Mus musculus with 16 samples.

Results

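Every antibody and every B cell antigen receptor pairs a heavy chain with a light chain that is either kappa or lambda, and a B cell normally keeps one productive light chain. A light chain transcript joins a variable exon, a short joining segment and a constant exon, so that reads from a rearranged gene fall on a variable gene and on a constant gene. In the mouse the kappa locus holds many variable genes before 1 constant gene, *Igkc*, whereas the lambda locus is small: *Iglv1* joins mainly to *Iglc3* or *Iglc1*, and *Iglv2* and *Iglv3* mainly to *Iglc2*. The 7 light chain genes described here were the rows of the deposited table named *Igkc* (kappa constant), *Iglc1*, *Iglc2* and *Iglc3* (lambda constant) and *Iglv1*, *Iglv2* and *Iglv3* (lambda variable), which are 7 of 51912 genes in the table and were each present once.

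The genes were measured by RNA sequencing in 16 libraries of cMyc+ germinal center (GC) B cells, 4 libraries in each of 4 subpopulations. All cells came from the spleens of cMyc gfp/gfp mice, in which a GFP-cMyc fusion protein is made from the endogenous locus, at 6 to 15 weeks of age, of both sexes, 7 d after sheep red blood cells (SRBC) were injected intraperitoneally; B cells were first enriched by removal of CD43+ cells, and all groups were sorted as B220+ CD38low CD95+ cMycGFP+. The subpopulations were cMyc+prePB (CD69hi, the candidate plasmablast precursors), cMyc+early (CD23hi CD21/35hi), cMyc+lateCD23int and cMyc+lateCD23lo (with intermediate and low CD23). Each subpopulation has replicates numbered 1 to 4, and no label says whether libraries with 1 number share mice or a sorting day, or how many mice a library holds; p-values therefore measure the spread between these libraries, which may be partly technical.

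Values are normalized counts, in which the gene counts of a library were scaled by its size factor. The libraries held 19812080 to 25795815 recovered reads, and immunoglobulin genes took 1.35% to 2.65% of them. Of the genes for the gated proteins, *Fcer2a* (CD23) was highest in cMyc+early, at 13398 ± 4314 (SD, n = 4), and lowest in cMyc+lateCD23lo, at 2274 ± 1172. *Cr2* (CD21/35) differed over the 4 subpopulations (limma, adjusted p = 0.0219) and was lowest in cMyc+prePB, at 1860 ± 811. Its mean was lower in cMyc+lateCD23lo (4738 ± 2939) than in cMyc+lateCD23int (6928 ± 1497), with overlapping ranges. It was not higher in cMyc+early (6638 ± 1826) than in cMyc+lateCD23int. The *Cd69* mean was lower in the CD69hi cMyc+prePB (3453 ± 1296) than in cMyc+lateCD23int (3762 ± 1766), and its ranges overlapped between all 4 subpopulations (limma, adjusted p = 0.687). The *Cd69* transcript thus did not follow its gate, and *Cr2* did not follow the step from cMyc+early to cMyc+lateCD23int. In bulk samples, fewer cells that use a chain and less RNA per cell cannot be told apart.

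The sequences matter here because several of these genes are near copies, and a read from a shared stretch cannot be assigned to 1 gene. The 4 constant exons are printed first, as the first 300 coding bases, 5′ to 3′ on the coding strand, from the GENCODE transcripts of GRCm38. These lie at chr6:70726435-70726734 on the + strand (*Igkc*) and, on the − strand, at chr16:19061772-19062071 (*Iglc1*), chr16:19198554-19198853 (*Iglc2*) and chr16:19065382-19065681 (*Iglc3*). Capitals in *Iglc1* mark bases that differ from *Iglc2* or face a gap, and capitals in *Iglc2* and *Iglc3* mark where these differ from each other.
Igkc: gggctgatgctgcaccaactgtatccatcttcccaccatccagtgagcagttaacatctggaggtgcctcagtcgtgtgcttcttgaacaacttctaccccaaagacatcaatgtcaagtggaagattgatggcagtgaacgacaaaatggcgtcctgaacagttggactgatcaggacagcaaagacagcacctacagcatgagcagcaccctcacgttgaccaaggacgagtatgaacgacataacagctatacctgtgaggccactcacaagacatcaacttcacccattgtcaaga
Iglc1: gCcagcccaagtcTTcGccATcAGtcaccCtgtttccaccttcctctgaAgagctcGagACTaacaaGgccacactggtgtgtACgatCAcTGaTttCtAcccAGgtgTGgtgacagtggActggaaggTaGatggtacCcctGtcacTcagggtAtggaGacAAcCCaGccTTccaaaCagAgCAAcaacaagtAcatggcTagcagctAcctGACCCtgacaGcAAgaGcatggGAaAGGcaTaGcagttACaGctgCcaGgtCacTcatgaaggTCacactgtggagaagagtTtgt
Iglc2: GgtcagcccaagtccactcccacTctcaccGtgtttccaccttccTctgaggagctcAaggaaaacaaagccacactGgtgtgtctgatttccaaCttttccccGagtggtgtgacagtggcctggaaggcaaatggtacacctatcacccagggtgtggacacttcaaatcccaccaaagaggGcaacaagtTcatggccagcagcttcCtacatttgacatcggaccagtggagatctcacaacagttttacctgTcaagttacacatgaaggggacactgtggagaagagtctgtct
Iglc3: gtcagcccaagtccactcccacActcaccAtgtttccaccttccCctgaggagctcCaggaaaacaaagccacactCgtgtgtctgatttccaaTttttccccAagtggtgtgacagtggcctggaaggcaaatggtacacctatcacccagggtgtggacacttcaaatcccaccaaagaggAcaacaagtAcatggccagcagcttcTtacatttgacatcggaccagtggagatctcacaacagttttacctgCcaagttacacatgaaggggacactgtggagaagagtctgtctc

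Over their whole coding parts of 318 and 317 bases, *Iglc2* and *Iglc3* were identical at 306 positions and differed at 11, with 1 further base at the start of *Iglc2* (96.2% identity); the longest stretch without a difference was 79 bases. *Iglc1* was 73.3% identical to *Iglc2* and 74.1% to *Iglc3*, and *Igkc* was 53.1% to 53.9% identical to the lambda exons. Of all 50-base windows of the *Iglc2* transcript, 10.51% occurred unchanged in that of *Iglc3*, and none of its 100-base windows did.

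The variable genes form the other close pair. The first 300 bases of the variable exons of *Iglv1* (chr16:19085022-19085321) and *Iglv2* (chr16:19260406-19260705), both on the − strand of GRCm38, are printed with capitals where they differ from each other.
Iglv1: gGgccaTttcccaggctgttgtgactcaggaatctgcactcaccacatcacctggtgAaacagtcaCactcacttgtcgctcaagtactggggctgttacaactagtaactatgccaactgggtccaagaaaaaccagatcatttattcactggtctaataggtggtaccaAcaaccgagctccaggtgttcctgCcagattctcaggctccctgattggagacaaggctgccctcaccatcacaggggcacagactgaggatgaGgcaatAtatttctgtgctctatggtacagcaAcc
Iglv2: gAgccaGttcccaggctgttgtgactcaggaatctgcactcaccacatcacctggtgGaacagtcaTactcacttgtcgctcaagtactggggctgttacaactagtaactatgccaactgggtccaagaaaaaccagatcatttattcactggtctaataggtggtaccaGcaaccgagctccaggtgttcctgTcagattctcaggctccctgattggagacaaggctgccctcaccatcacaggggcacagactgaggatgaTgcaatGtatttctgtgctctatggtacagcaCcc

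With the leader exon, their coding parts differed at 11 of 351 positions (96.9% identity), and 22.2% of the 50-base windows of the *Iglv1* transcript were also in *Iglv2*. *Iglv3* was 54.7% identical to *Iglv1* and 54.2% to *Iglv2*. The submitters' processing notes name RSEM, which divides shared reads by estimate, so the division of counts within *Iglc2* and *Iglc3* and within *Iglv1* and *Iglv2* is uncertain, whereas the sum of each pair does not depend on it. *2010309G21Rik*, an antisense gene, overlaps the *Iglc3* exon, and its span as a gene also overlaps *Iglc1* and *Iglv1*. The kit does not mark strand. The *2010309G21Rik* row held 0.249% to 1.004% of the *Iglc3* value and was not set against *Iglc1* or *Iglv1*.

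The kappa constant gene was the most abundant of the 7 in every library. *Igkc* was at 241790, 123417, 127901 and 121934 normalized counts in cMyc+prePB replicates 1 to 4. It was at 159735, 96973, 134421 and 92853 in cMyc+early and at 177468, 140137, 94821 and 120433 in cMyc+lateCD23int. In cMyc+lateCD23lo it was at 206201, 151532, 166684 and 158637, so that all groups overlapped, although 3 of the 4 cMyc+early libraries lay below every cMyc+lateCD23lo library. *Igkc* alone took 0.442% to 1.05% of a library's reads.

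*Iglc1*, the lambda constant gene farthest downstream, spread far more widely in cMyc+prePB than elsewhere. In that subpopulation it was at 31092, 4712, 7292 and 23105 normalized counts, a 6.60-fold range. In the other 12 libraries it stayed between 6592 and 18079, and the highest value was 1.51 times the lowest in cMyc+early, 2.74 times in cMyc+lateCD23int and 2.11 times in cMyc+lateCD23lo. The lowest and the highest values of all 16 libraries were thus both in cMyc+prePB.

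*Iglc3*, next to *Iglc1*, did not share that spread. It was at 17277, 7871, 10864 and 8180 normalized counts in cMyc+prePB and at 15679, 8968, 13932 and 7286 in cMyc+early. It was at 17896, 12210, 7975 and 11290 in cMyc+lateCD23int and at 16738, 10895, 13234 and 11864 in cMyc+lateCD23lo. The groups overlapped, with means from 11048 ± 4364 (SD, n = 4) in cMyc+prePB to 13183 ± 2557 in cMyc+lateCD23lo.

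*Iglc2*, which lies before *Iglv1* in the other J-C cluster of the locus, was at 10081, 4853, 5713 and 7095 in cMyc+prePB and at 10207, 5905, 6897 and 4215 in cMyc+early. It was at 12408, 7364, 5433 and 7601 in cMyc+lateCD23int and at 11946, 7358, 9440 and 9274 in cMyc+lateCD23lo. Here too the groups overlapped. Per kilobase of annotated exon, the medians over the 16 libraries were 258043 normalized counts for *Igkc*, 25613 for *Iglc3*, 24398 for *Iglc1* and 12028 for *Iglc2*; the ranges of *Iglc3* and *Iglc1* overlapped, and those of the lambda genes lay far below that of *Igkc*.

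*Iglv1*, the variable gene used with *Iglc3* and *Iglc1*, repeated the cMyc+prePB pattern of *Iglc1* at 30919, 4019, 9081 and 21255 normalized counts. It was at 11470, 8114, 10395 and 7497 in cMyc+early, 14738, 8622, 4749 and 8294 in cMyc+lateCD23int, and 12978, 5782, 10135 and 9463 in cMyc+lateCD23lo. The cMyc+prePB libraries numbered 1 and 4 were the 2 highest of all 16, and the highest cMyc+prePB value was 7.69 times the lowest, the widest range of the 7 genes in any subpopulation.

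*Iglv2*, the near copy of *Iglv1*, was at 1769, 726, 860 and 2376 in cMyc+prePB and at 932, 1038, 1074 and 823 in cMyc+early. It was at 1560, 1278, 926 and 1595 in cMyc+lateCD23int and at 2038, 1330, 2058 and 2389 in cMyc+lateCD23lo, so all cMyc+lateCD23lo libraries lay above all cMyc+early libraries. *Iglv3* was the scarcest: the cMyc+prePB mean was 280.1 ± 30.9 normalized counts (SD, n = 4), that of cMyc+early 320.3 ± 85.1, that of cMyc+lateCD23int 423.2 ± 98.2 and that of cMyc+lateCD23lo 491.4 ± 180.1. Its lowest library (cMyc+prePB replicate 2) held 246 and its highest (cMyc+lateCD23lo replicate 1) 744. The cMyc+prePB values of 246 to 320 lay below all cMyc+lateCD23int values (lowest 361) and all cMyc+lateCD23lo values (lowest 357).

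**Figure D1:**
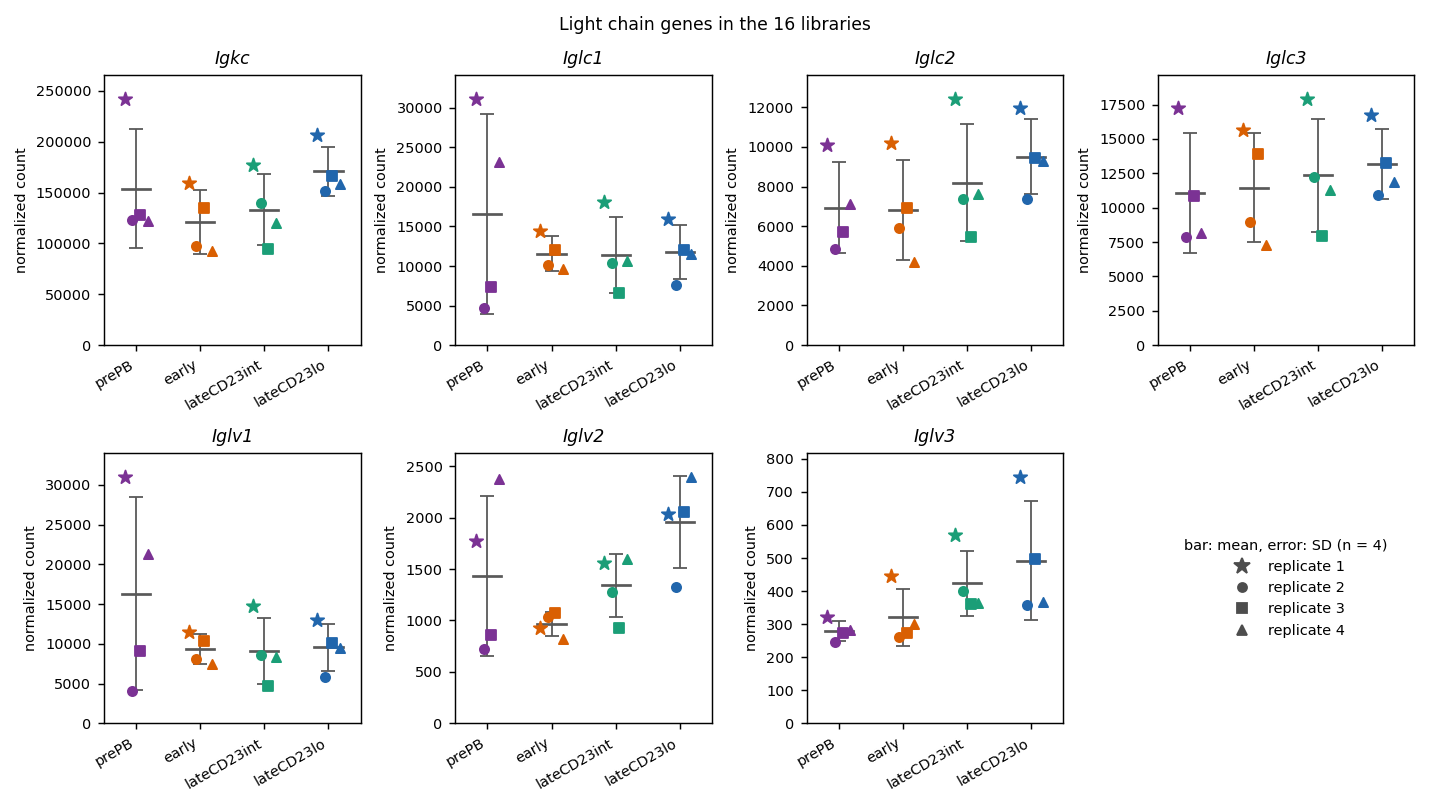
Normalized counts (linear axes from 0) of the 7 light chain genes in each library, by subpopulation along the horizontal axis; stars, circles, squares and triangles are replicates 1, 2, 3 and 4, bars are means and error bars SD (n = 4). *Iglc1* and *Iglv1* spread most widely in cMyc+prePB (4712 to 31092 and 4019 to 30919), and the stars are the highest *Igkc* value in 4 of 4 subpopulations.

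A pattern by replicate number runs through these values. The library numbered 1 was the highest of its subpopulation in 4 of 4 subpopulations for *Igkc*, *Iglc1*, *Iglc2*, *Iglc3*, *Iglv1* and *Iglv3*, and in 0 of 4 for *Iglv2*. *Iglc3* averaged 16897 ± 940 (SD, n = 4) in the libraries numbered 1 and 10381 ± 2259 (n = 12) in the others, without overlap, and *Igkc* averaged 196299 ± 35866 and 127479 ± 24472. When libraries were compared by number, a comparison chosen after seeing the data, *Igkc*, *Iglc2* and *Iglc3* passed (limma with subpopulation in the model, adjusted p = 0.0412, 0.0390 and 0.0444), 3 of 7 where 3.14% of all 12505 tested genes passed. This count of 3 remained without cMyc+early replicate 3, cMyc+lateCD23int replicate 2 or cMyc+lateCD23int replicate 3, and fell to 0 or 1 without any one of the other 13 libraries. What the number stands for is not given in the sources used here.

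Between the subpopulations, none of the 7 genes passed the test over all 4 groups (limma on log2 values, adjusted p under 0.05 over 12505 genes, of which 0.408% passed). Their adjusted p-values were 0.646 for *Igkc*, 0.991 for *Iglc1*, 0.689 for *Iglc2*, 0.908 for *Iglc3*, 0.886 for *Iglv1*, 0.475 for *Iglv2* and 0.541 for *Iglv3*. At an unadjusted limma p under 0.05 there was 1 gene, *Iglv2*, where 10.2% of all tested genes passed that mark. With edgeR and DESeq2 on recovered reads 0 of 7 passed after adjustment.

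Each pair of subpopulations gave the same count of 0 of 7 after adjustment with limma, edgeR and DESeq2. The share of all tested genes that passed with limma was 0.192% for cMyc+prePB against cMyc+early, 0.144% against cMyc+lateCD23int and 0.264% against cMyc+lateCD23lo. It was 0.008% for cMyc+early against cMyc+lateCD23int, 0.28% for cMyc+early against cMyc+lateCD23lo and 0.008% for cMyc+lateCD23int against cMyc+lateCD23lo. Of the 42 tests of a gene in a pair, 3 had an unadjusted p under 0.05, 2 in cMyc+early against cMyc+lateCD23lo and 1 in cMyc+prePB against cMyc+lateCD23lo, where 10.3% and 12.7% of all tested genes passed that mark; over the 6 pairs this share was 3.71% to 12.7%.

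*Iglv2* was lower in cMyc+early than in cMyc+lateCD23lo by a log2 fold change of -0.99 (95% interval -1.65 to -0.33; limma, unadjusted p = 0.00556, adjusted p = 0.268), with no overlap between the groups. *Igkc* was at -0.52 in the same pair (interval -1.02 to -0.03; limma, unadjusted p = 0.0392, adjusted p = 0.452). *Iglv3* was at -0.75 in cMyc+prePB against cMyc+lateCD23lo (interval -1.38 to -0.12, limma unadjusted p = 0.0224, adjusted p = 0.302), again with no overlap. Against cMyc+lateCD23int, also without overlap, it was at -0.57 (interval -1.20 to 0.06, limma unadjusted p = 0.0716, adjusted p = 0.62). The share of all tested genes without overlap is not given here.

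The intervals show what this design could leave unseen. For *Igkc*, the fold change of cMyc+prePB over cMyc+early was 0.32 on the log2 scale with an interval of -0.18 to 0.81, and over cMyc+lateCD23lo it was -0.21 (-0.70 to 0.29). For *Iglc1*, whose cMyc+prePB libraries were far apart, the interval of cMyc+prePB against cMyc+early ran from -0.81 to 1.08 around 0.14, and for *Iglv1* from -0.54 to 1.41 around 0.43. In cMyc+early against cMyc+lateCD23lo, 5 of 7 genes had fold changes below 0, with a median of -0.52 beside -0.01 over all tested genes; in cMyc+prePB against cMyc+early, 5 of 7 were above 0, with a median of 0.14 beside 0.01.

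**Figure D2:**
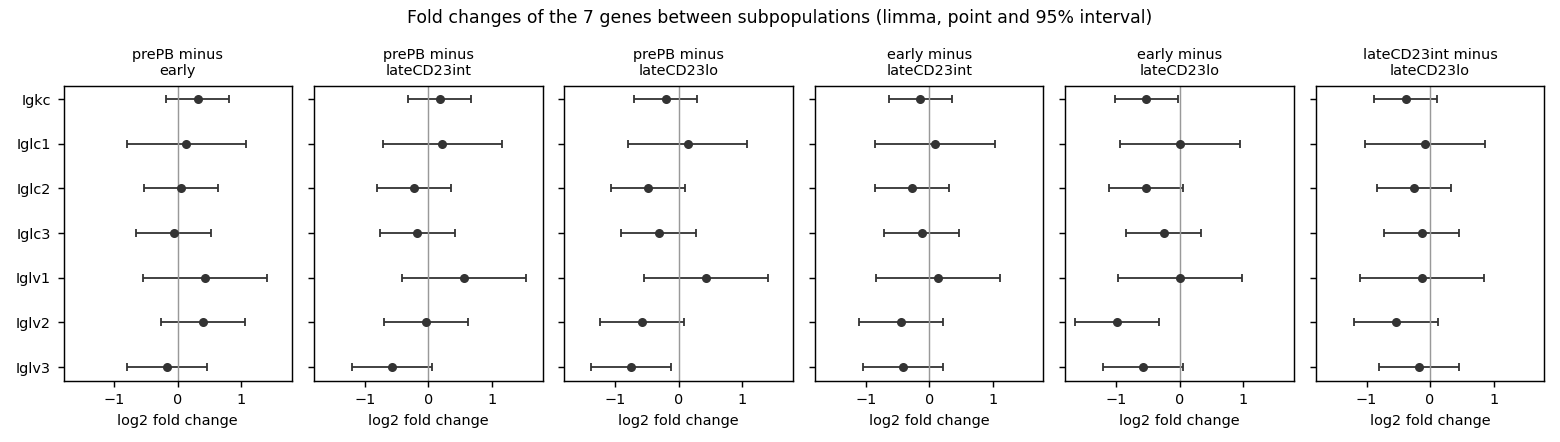
Log2 fold changes of the 7 genes (rows) in the 6 pairs of subpopulations (panels), first group minus second, as points with 95% intervals from limma over all 16 libraries. The intervals of *Iglv2* and *Igkc* in early minus lateCD23lo and of *Iglv3* in prePB minus lateCD23lo do not reach 0, but 0 of 7 genes passed in any panel after adjustment over all genes.

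The ratio of lambda to kappa constant counts (the sum of *Iglc1*, *Iglc2* and *Iglc3* over *Igkc*) removes the level that both chains share in a library. It was 0.242, 0.141, 0.187 and 0.315 in cMyc+prePB replicates 1 to 4. In cMyc+early it was 0.253, 0.258, 0.244 and 0.227, in cMyc+lateCD23int 0.273, 0.214, 0.211 and 0.245, and in cMyc+lateCD23lo 0.217, 0.170, 0.208 and 0.206. The cMyc+prePB libraries held both the lowest and the highest ratio of all 16.

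The cMyc+prePB mean was 0.221 ± 0.0747 (SD, n = 4), and the others were 0.246 ± 0.0136 in cMyc+early, 0.236 ± 0.0291 in cMyc+lateCD23int and 0.2002 ± 0.0205 in cMyc+lateCD23lo. Expressed as a share of all light chain constant counts, lambda made up 12.4% (95% exact binomial interval 12.2% to 12.5%, which covers counting error only) in cMyc+prePB replicate 2 and 23.9% (23.7% to 24.1%) in replicate 4 of the same subpopulation. Per kilobase of exon, the ratio over all libraries averaged 0.248 ± 0.0471 (SD, n = 16).

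The log2 ratio did not pass a test over the 4 subpopulations (exact permutation test over all 2627625 assignments of libraries to groups, p = 0.449). In the 6 pairs, adjusted for 6 tests, the lowest p belonged to cMyc+early against cMyc+lateCD23lo, in which the groups did not overlap and cMyc+early was higher by 0.30 on the log2 scale (exact permutation test, two-sided, p = 0.0286, the smallest that 4 against 4 allows; adjusted p = 0.171). Shifts from 0.07 to 0.60 were not refused by that test at 0.05. For cMyc+lateCD23int against cMyc+lateCD23lo the difference was 0.23 (interval -0.04 to 0.68; exact permutation p = 0.0857, adjusted p = 0.257). The 3 comparisons with cMyc+prePB gave differences of -0.21, -0.15 and 0.09 and intervals of -0.87 to 0.47, -0.95 to 0.58 and -0.62 to 0.89 (exact permutation, adjusted p = 0.72, 0.72 and 0.8), and cMyc+early against cMyc+lateCD23int gave 0.07 (-0.26 to 0.29; exact permutation, adjusted p = 0.72).

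Splitting lambda showed where the cMyc+prePB spread sat. *Iglc1* over *Igkc* was 0.129, 0.0382, 0.0570 and 0.189 in the 4 cMyc+prePB libraries, against 0.0499 to 0.105 in the other 12. *Iglc2* plus *Iglc3*, a sum that is insensitive to how their shared reads were divided, over *Igkc* was 0.113, 0.103, 0.130 and 0.125 in cMyc+prePB. The same ratio was 0.162, 0.153, 0.155 and 0.124 in cMyc+early, 0.171, 0.140, 0.141 and 0.157 in cMyc+lateCD23int, and 0.139, 0.120, 0.136 and 0.133 in cMyc+lateCD23lo. The cMyc+prePB libraries thus lay at the low end, and all 4 were below every cMyc+lateCD23int library.

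This *Iglc2* plus *Iglc3* ratio had a cMyc+prePB mean of 0.118 ± 0.0120 (SD, n = 4), and means of 0.149 ± 0.0169 in cMyc+early, 0.152 ± 0.0146 in cMyc+lateCD23int and 0.132 ± 0.00819 in cMyc+lateCD23lo. It was 1 of 5 definitions of the ratio that were tested, and the only one of them with a p under 0.05 over the 4 subpopulations (exact permutation test, p = 0.0115; adjusted for the 5 definitions, p = 0.0573). Without the 4 libraries numbered 1 the exact permutation p was 0.112, and without each single library it stayed between 0.00123 and 0.0377. These p-values are not adjusted for the 5 definitions. Between pairs, cMyc+lateCD23int did not overlap with cMyc+prePB or with cMyc+lateCD23lo (exact permutation p = 0.0286 in both, adjusted p = 0.0857 over 6 pairs but not over the 5 definitions). Its lowest value (0.1397) lay just above the highest cMyc+lateCD23lo value (0.1391).

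**Figure D3:**
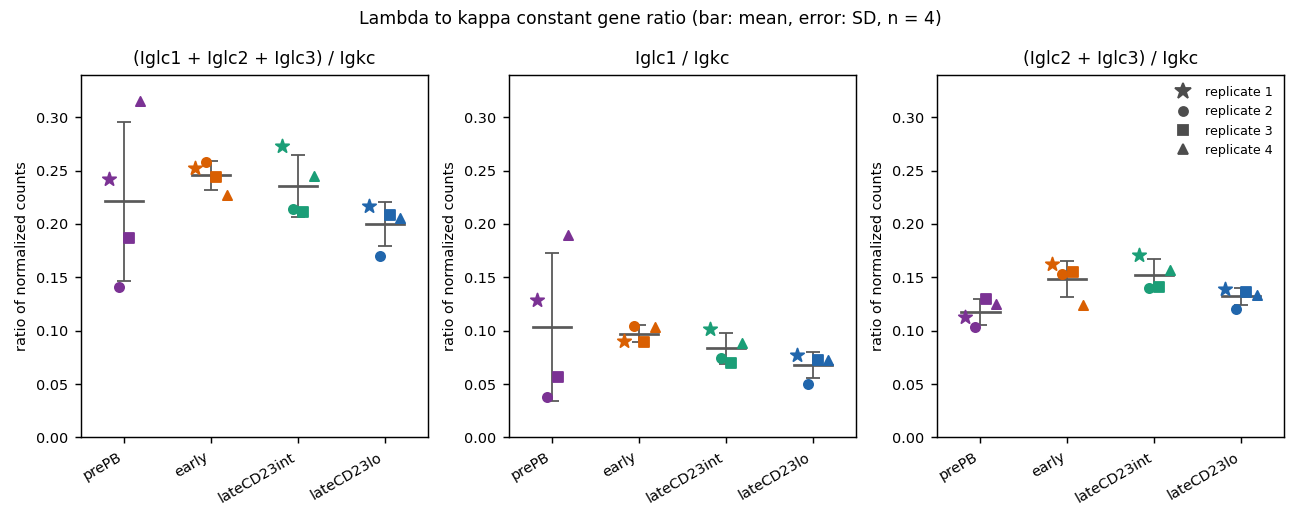
Ratio of lambda to kappa constant normalized counts in each library (linear axes from 0), for all 3 lambda constant genes, for *Iglc1* alone and for *Iglc2* plus *Iglc3*; symbols are replicates, bars means and error bars SD (n = 4). The wide cMyc+prePB spread of the first panel (0.141 to 0.315) is seen in the second panel (0.0382 to 0.189) and not in the third (0.103 to 0.130).

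The make-up of the lambda counts varied in the same 4 libraries. *Iglc1* held 53.2%, 27.0%, 30.6% and 60.2% of the summed lambda constant counts in cMyc+prePB, and 29.3% to 45.4% in the other 12 libraries. *Iglc3* held 21.3% to 45.5% in cMyc+prePB and 34.6% to 42.4% elsewhere. *Iglc2* held 17.2% to 27.8% in cMyc+prePB, 19.99% to 25.3% in cMyc+early, 24.5% to 27.2% in cMyc+lateCD23int and 26.8% to 28.5% in cMyc+lateCD23lo, the last above all cMyc+early libraries.

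Among the variable genes, *Iglv1* held most of the counts, from 77.4% (cMyc+lateCD23lo replicate 2) to 93.7% (cMyc+prePB replicate 1). *Iglv2* held 9.24% ± 1.55 (SD, n = 4) of them in cMyc+early and 16.6% ± 2.82 in cMyc+lateCD23lo, with ranges of 7.25% to 11.03% and 12.9% to 19.6% that did not overlap. The cMyc+prePB libraries lay between 5.36% and 14.5%. These shares were compared as a description and were not tested, and they depend on the uncertain division of counts between *Iglv1* and *Iglv2*.

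**Figure D4:**
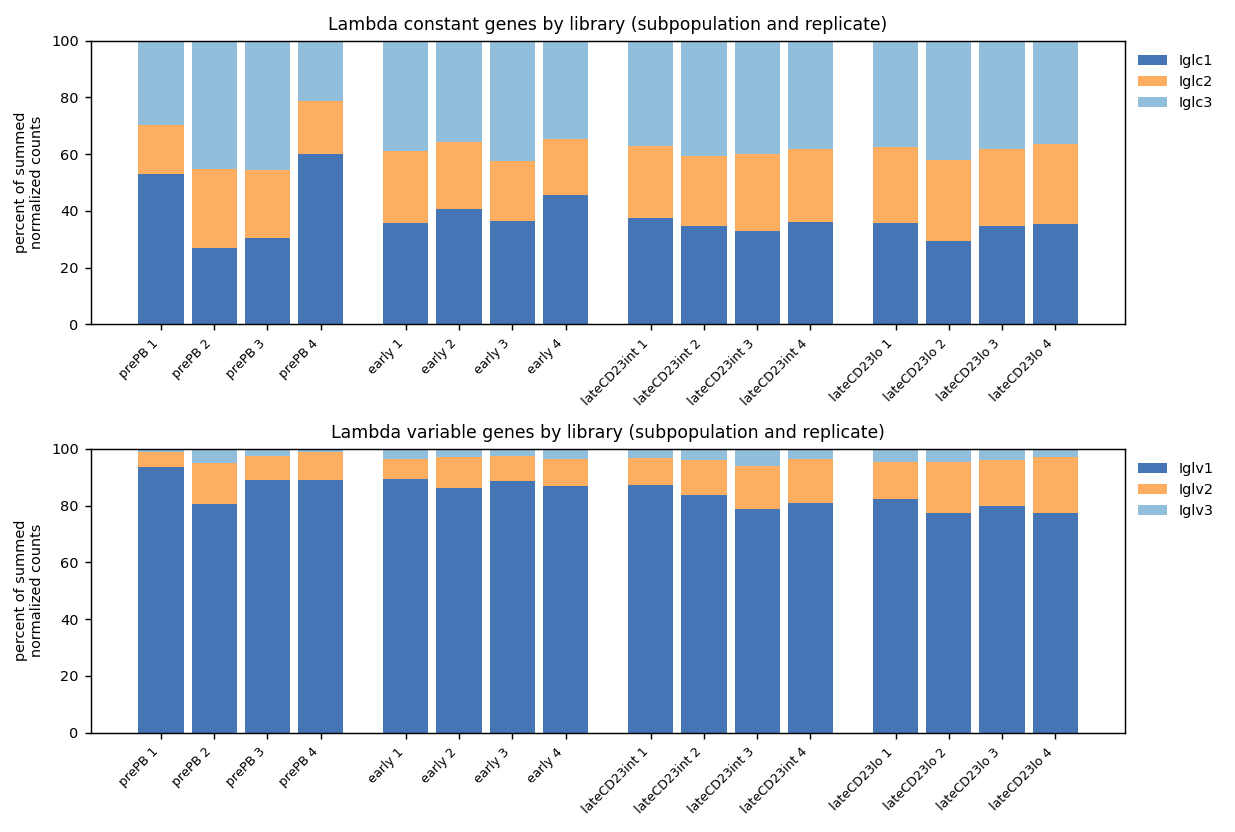
Share of each lambda constant gene (upper panel) and each lambda variable gene (lower panel) in their summed normalized counts, in percent, 1 bar per library grouped by subpopulation and labelled with the replicate number. *Iglc1* reaches 53.2% and 60.2% in cMyc+prePB replicates 1 and 4 and 27.0% and 30.6% in replicates 2 and 3, and *Iglv2* is larger in every cMyc+lateCD23lo bar than in every cMyc+early bar.

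Variable and constant genes that can be joined in 1 transcript were correlated over the 16 libraries. The values were already scaled by size factor, but genes of a library may share, in part, its total immunoglobulin level. Lambda variable and constant genes that are not partners were not compared. Joining and a shared level therefore cannot be told apart by these r values. *Iglv1* and *Iglc1* had Pearson's r = 0.97 and Spearman's rho = 0.95 on the log2 scale (permutation test, p = 1e-05 for both, the smallest that 100000 resamples can give; adjusted for 5 relations, p = 5e-05). Without the 2 cMyc+prePB libraries farthest from the median, replicates 1 and 2, r was 0.94, and within subpopulations it was 0.99. *Iglv1* over *Iglc1* was 0.720 to 0.864 in the 12 libraries outside cMyc+prePB and 0.994, 0.853, 1.25 and 0.920 in cMyc+prePB replicates 1 to 4.

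*Iglv1* and *Iglc3*, the other constant gene it joins, had r = 0.59 and rho = 0.74 (permutation p = 0.0152 and 0.0013, adjusted p = 0.0152 and 0.00162). Here cMyc+prePB replicate 4 stood apart, with the highest *Iglv1* value but 1 (21255) and an *Iglc3* value (8180) among the 4 lowest. Without cMyc+prePB replicates 1 and 2 r was 0.40, and without cMyc+prePB replicate 1 alone r was 0.50 (permutation p = 0.0584). Leaving out each library in turn gave r from 0.50 to 0.82, so its size depended on single libraries. Within subpopulations r was 0.71, within replicate numbers 0.36, and without the 4 libraries numbered 1 it was 0.27. That the r with *Iglc1* was larger than that with *Iglc3* was not tested.

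In the other cluster, *Iglv2* and *Iglc2* had r = 0.69 and rho = 0.67 (permutation p = 0.00353 and 0.00584, adjusted p = 0.00441 and 0.00584), and r = 0.79 without cMyc+lateCD23lo replicate 4 and cMyc+prePB replicate 4. *Iglv3* and *Iglc2* had r = 0.78 and rho = 0.81 (permutation p = 0.00036 and 0.0003, adjusted p = 0.0006 and 0.0005), and r = 0.65 without the cMyc+lateCD23int and cMyc+lateCD23lo libraries numbered 1. *Igkc* and the lambda constant genes lie on different chromosomes and are not joined in a transcript. For *Igkc* and the lambda constant sum, r was 0.82 and rho 0.81 (permutation p = 7e-05 and 0.00028, adjusted p = 0.000175 and 0.0005). That r was above the r of *Iglv2* or *Iglv3* with *Iglc2*, a difference that was not tested. Without the 2 libraries farthest from the median, cMyc+prePB and cMyc+lateCD23lo replicate 1, that r was 0.71, within replicate numbers it was 0.68, and without the 4 libraries numbered 1 it was 0.57.

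**Figure D5:**
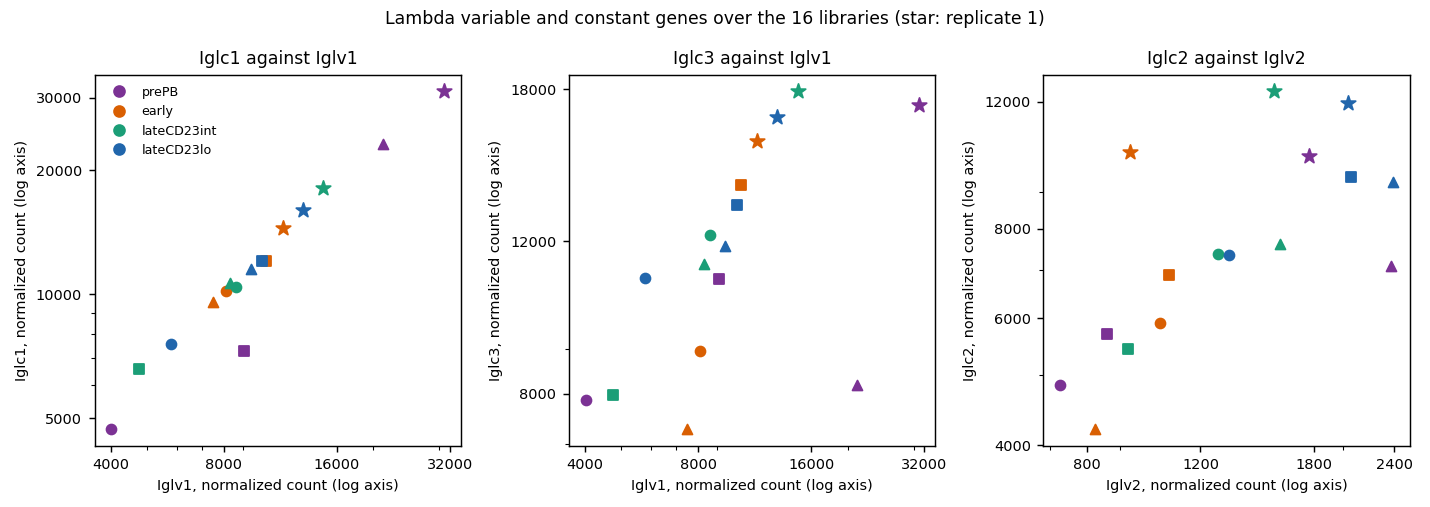
Normalized counts of lambda constant genes against lambda variable genes on log axes, 1 point per library, coloured by subpopulation, with stars for replicate 1, circles for 2, squares for 3 and triangles for 4. *Iglc1* follows *Iglv1* closely (r = 0.97), while in the middle panel cMyc+prePB replicate 4 (triangle) combines an *Iglv1* value of 21255 with an *Iglc3* value of 8180.

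The ratio of summed variable to constant counts varied less for kappa than for lambda. The use of single kappa variable genes was not examined here. The summed counts of the kappa variable genes were 0.548 to 0.599 times the *Igkc* count in all 16 libraries, with group means from 0.561 ± 0.00582 (SD, n = 4) in cMyc+lateCD23int to 0.578 ± 0.0135 in cMyc+prePB. For lambda, the sum of *Iglv1*, *Iglv2* and *Iglv3* was 0.286 to 0.623 times the constant sum, and both of these extremes were in cMyc+prePB. Light chain constant counts were 1.34 to 2.55 times the summed heavy chain constant counts in cMyc+prePB, 1.123 to 2.20 in cMyc+early, 1.202 to 2.77 in cMyc+lateCD23int and 2.05 to 3.33 in cMyc+lateCD23lo. All 4 ranges overlapped.

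The remaining light chain segments gave few counts. *Iglc4*, held to be non-functional, was at means of 8.16 to 12.2 normalized counts, the kappa joining segments *Igkj1*, *Igkj2*, *Igkj4* and *Igkj5* were at group means of 1.27 to 10.9, and *Igkj3*, *Iglj3p* and *Iglj4* had 0 reads in all libraries. The genes whose log2 values followed *Igkc* most closely over the 16 libraries were *Trappc2l* (r = 0.93), *Ndufa3* (r = 0.93) and *Trappc4* (r = 0.92), and for the lambda constant sum *Nipsnap3b* (r = 0.92), *Nsmce1* (r = 0.90) and *Gm6055* (r = 0.88). As a description over 16 libraries, the 95th percentile of r over all tested genes was 0.70 and 0.64.

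Genes that act with the light chain were taken from 4 lists: receptor partners and surrogate light chain, light chain recombination, transcription of the light chain loci, and folding and assembly of antibody in the endoplasmic reticulum. Of their 52 genes 46 had enough counts to be tested, and 1, *Vpreb3*, passed over the 4 subpopulations (limma, adjusted p = 0.00776); 13 had an unadjusted p under 0.05. Over all tested genes, 0.408% passed after adjustment and 10.2% before it. The lists held 1 of 3, 0 of 9, 0 of 18 and 0 of 16 tested genes that passed. *Vpreb3*, a relative of the surrogate light chain that binds immunoglobulin chains inside the cell, averaged 3119 ± 423 normalized counts in the 4 cMyc+prePB libraries (SD), 5237 ± 587 in cMyc+early, 5232 ± 777 in cMyc+lateCD23int and 6482 ± 541 in cMyc+lateCD23lo. The cMyc+prePB libraries (2623 to 3504) lay below all 12 others. Against cMyc+lateCD23lo the log2 fold change was -1.06 (limma, adjusted p = 0.00181).

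Several genes of these lists were listed at 0: *Igll1* and *Vpreb2*, parts of the surrogate light chain that pairs with the heavy chain in precursor B cells, and *Rag1*, *Rag2* and *Dntt*, which cut the loci and add bases at the joins, had 0 reads in all 16 libraries. For 1 library alone, of at least 19812080 reads, a count of 0 does not exclude an expected count of up to 3 (95% confidence). *Vpreb1*, the other surrogate light chain gene of the list, did have reads, with at most 33.3 normalized counts in a cMyc+prePB library, 14.97 in a cMyc+lateCD23lo library and 0.929 in a cMyc+lateCD23int library, and 0 in cMyc+early. *Cd79a* and *Cd79b*, the signalling chains of the receptor, were high in all libraries and gave adjusted p-values of 0.424 and 0.59 (limma). For cMyc+prePB against cMyc+early, the *Vpreb3* difference was -0.75 on the log2 scale (adjusted p = 0.0450 with limma and 0.0702 with edgeR), a call that remained only without cMyc+prePB replicate 1, cMyc+lateCD23int replicate 1 or 3, or cMyc+lateCD23lo replicate 1, and ended at up to 0.156 without any other library.

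*Lig4* and *Jchain* were chosen after their values were seen, as the only other genes of these 4 lists called in a pair with limma; edgeR called neither (adjusted p = 0.0734 and 0.0639). *Lig4*, the ligase that closes the joins, averaged 130.3 ± 78.5 in the 4 cMyc+prePB libraries (SD) and 506.9 ± 103.2 in cMyc+lateCD23lo (limma, adjusted p = 0.0344), and lost the call at up to 0.123 without cMyc+prePB replicate 2 or 4, cMyc+lateCD23int replicate 2, or cMyc+lateCD23lo replicate 2, 3 or 4. *Jchain*, which links IgM and IgA into polymers, was at 23623 ± 3331 in cMyc+early and 64836 ± 14003 in cMyc+lateCD23lo, with no overlap (limma, adjusted p = 0.0394). It lost the call at up to 0.158 without any 1 cMyc+early library, without cMyc+lateCD23lo replicate 2, 3 or 4, without cMyc+lateCD23int replicate 2 or 4, or without cMyc+prePB replicate 3.

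Plasma cells carry much light chain RNA, so their markers are given beside these results. Of 8 plasma cell markers, 0 of the 7 tested passed over the 4 subpopulations (limma; 2 at an unadjusted p under 0.05); *Sdc1* was at 0 to 107.5 and *Prdm1* at 0 to 132.9 normalized counts, and the summed level was 41446 to 117222 in cMyc+prePB, 28381 to 37287 in cMyc+early, 36332 to 65632 in cMyc+lateCD23int and 62981 to 95498 in cMyc+lateCD23lo, mostly from *Jchain*. The 8 T cell markers summed to at most 230.8, the 6 macrophage markers to at most 1158, the 4 neutrophil markers to at most 8.14 and the 6 erythroid markers to at most 4954 in any library; 0 of the tested genes of these lists passed over the 4 subpopulations. Their part in the light chain values was not tested.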

How the data were processed

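The authors deposited 1 table of a signal, the gene counts of each library scaled by a size factor; per the labels, their processing notes name Trimmomatic 0.36, STAR 2.5.2a, RSEM 1.2.31, DESeq2 1.20.0, R 3.5.1 and GRCm38, without role or order. Columns were assigned to libraries by the names in the labels. Each library's values were whole multiples of 1 step (tolerance 0.001), so whole counts were recovered for 100% of them. These are called reads here, but they may be rounded estimates where RSEM divided shared reads. Log2(normalized count + 1) was fitted with limma 3.58.1 (trend, Benjamini-Hochberg adjustment) over all 16 libraries for 12505 genes with a mean of at least 10. edgeR 4.0.16 and DESeq2 1.42.0 were run on recovered reads, and fits were tested on simulated data. Ratios were compared by exact permutation over libraries, correlations by 100000 resamples. Transcripts and positions came from GENCODE (GRCm38).

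All 7 genes are given, in every library except for *Iglv3* (by mean and range) and *Iglc1* outside cMyc+prePB (by range). Genes with the highest r and list genes with an adjusted p under 0.05 over the 4 subpopulations are named beside them. The genes and lists were chosen with earlier results of these data known.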

Additional observations from a re-analysis of the deposited data

Results flagged for a closer look

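*Igkc* in cMyc+prePB replicate 1, at 241790 normalized counts, stood far from the other 3 cMyc+prePB libraries, which lay between 121934 and 127901: its gap to the nearest of them was 0.9502 of the whole range, above Dixon's critical value at 95% for 4 samples. It was the only value so marked among 32 sets of 4 libraries (7 genes and the lambda to kappa ratio in 4 subpopulations), and chance marks about 1 set in 20. The library was also the highest of its subpopulation for *Iglc1*, *Iglc2*, *Iglc3*, *Iglv1* and *Iglv3*.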

How the results depend on the processing

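The count of 0 of 7 genes over the 4 subpopulations and in each pair did not change under any other pseudocount, filter, scaling or tool, without each library, or without the libraries numbered 1. The count of 3 by replicate number became 0 without a filter, 0 without the trend and 0 without the libraries numbered 1, was 2 with quantile normalization (without *Igkc*) and 2 with edgeR (without *Iglc3*), and ranged from 0 to 3 without each library. Differences of the log2 ratio that changed sign, all short of the threshold, were: with *Iglc1* alone, 0.046 for cMyc+prePB against cMyc+lateCD23int; with *Iglc2* plus *Iglc3*, -0.17 for cMyc+prePB against cMyc+lateCD23lo and -0.037 for cMyc+early against cMyc+lateCD23int; with the variable genes over *Igkc*, 0.11 and 0.30, and over all kappa variable genes, 0.071 and 0.25, for cMyc+prePB against cMyc+early and against cMyc+lateCD23int. The *Iglc2* plus *Iglc3* ratio over the 4 subpopulations had an exact permutation p = 0.0115 (0.0573 when adjusted for the 5 definitions). The cause was not tested.

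Without each library, the p over the 4 subpopulations ranged from 0.0708 to 0.663 (exact permutation), and the log2 ratio differences from -0.34 to 0.047 for cMyc+prePB against cMyc+lateCD23int (above 0 without cMyc+prePB replicate 2) and from -0.11 to 0.28 against cMyc+lateCD23lo (below 0 without cMyc+prePB replicate 4). The r of *Iglv1* and *Iglc3* ranged from 0.50 to 0.82. The fold change of *Iglc1* in cMyc+prePB against cMyc+lateCD23int ranged from -0.21 to 0.69 (below 0 without cMyc+prePB replicate 1, cMyc+prePB replicate 4 or cMyc+lateCD23int replicate 3). *Vpreb3* missed the threshold without the trend (limma, adjusted p = 0.0643).

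Same-numbered libraries deviated together only weakly (mean correlation 0.05, range -0.13 to 0.17, over 0.1 in 5 of 24 pairs; 10 of 16 libraries correlated best with their own number). Number 1 stood apart, with 4 of those 5 pairs, a mean of 0.12 and 4 of 4 libraries closest to their own number. Since not every pair was over 0.1, the numbers were not taken as pairs. With the replicate block, genes called over the 4 subpopulations rose from 51 to 173 of 12505, members stayed at 0, and the ratio had an exact permutation p = 0.366 (*Iglc2* plus *Iglc3*, 0.0125, not adjusted for the 5 definitions). Without the block, edgeR called 29 and DESeq2 265 genes over the 4 subpopulations, and 0 members.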
